A study of Mus musculus with 2 samples.

Results

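The genes described here are the Hox cluster genes, the homeobox genes that lie side by side in the HoxA, HoxB, HoxC and HoxD complexes. They were chosen by symbol alone, as rows named Hoxa, Hoxb, Hoxc or Hoxd followed by a number, with antisense genes left out, and 38 of the 27998 genes in the matrices are described. They were measured by droplet-based single-cell RNA-seq in 2 libraries of mouse embryos at E9.5, in which GFP-positive, viable cells of the pharyngeal apparatus and heart had been sorted. The library labelled Ctrl came from embryos with Mesp1Cre and the Rosa26-GFPflox/+ reporter, and the library labelled cKO from embryos that carried both of these and Tbx1flox/flox. Mesp1Cre acts in early mesoderm, so that the sorted cells are its descendants, and Tbx1 is a T-box transcription factor gene. Embryos were on a Swiss Webster background. Each library was made from a pooled pair of embryos, each group has 1 library, and there is no replicate check and no test between the groups. The cKO embryos were staged slightly later by somite number than the Ctrl embryos, so that genotype, stage and the extent of the dissection cannot be told apart.

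Hox proteins are transcription factors that give cells along the body axis their positional character. In each complex the genes are ordered from paralogue group 1 at the 3′ end to group 13 at the 5′ end, and 3′ genes are switched on earlier and farther forward than 5′ genes, a relation known as collinearity. Retinoic acid activates many 3′ Hox genes, and in the heart field 3′ Hox genes mark its posterior part. Hox proteins bind DNA together with PBX and MEIS cofactors. In the GRCm38 build the members span 98.5 kb of chromosome 6 (HoxA, 52162417 to 52260880), 174 kb of chromosome 11 (HoxB, 96194316 to 96368254), 116 kb of chromosome 15 (HoxC, 102921131 to 103036856) and 96.9 kb of chromosome 2 (HoxD, 74668225 to 74765142). RefSeq models of some members overlap on the genome, Hoxa3 with Hoxa4, Hoxa5 and Hoxa6, Hoxb3 with Hoxb4, Hoxd3 with Hoxd4, and Hoxd10 with Hoxd11. Reads that fit more than 1 gene are not counted by Cell Ranger, so levels of these genes are uncertain.

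The matrices held 132017331 unique molecular identifiers (UMIs, counted molecules) in 7418 cell barcodes for the library labelled Ctrl and 162874391 in 10281 for the library labelled cKO, and 15 barcode sequences occurred in both. After filtering, 6614 and 9009 cells with medians of 16878.5 and 14212 UMIs were kept, and they formed 24 clusters that were built without any Hox gene. Levels are UMIs of a gene per 1000000 UMIs of the same cells (CPM), and intervals are 95% intervals for counting error only, exact except for equal-weight means and differences of shares. These are 3′ tag counts, which do not grow with transcript length, so levels of different genes were set side by side without a length correction. Tbx1 itself was at 26.5 CPM in the library labelled Ctrl and 44.6 CPM in the library labelled cKO, and in the multilineage progenitor (MLP)-like cluster 0 at 71.3 and 142 CPM, which goes against a loss of the transcript. Whether the counted 3′ tags lie outside the floxed part was not tested, and the libraries are called by their labels throughout. The median gene was 0.11 lower in the library labelled cKO on the log2 scale, so that a Hox log2 ratio of -0.11 equals that of the median gene.

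RefSeq upstream sequences of GRCm38.p6 were available for 22 of the 38 members. Of these, 4 are shown because their levels carry the comparisons below, Hoxa2 as a gene that was not lower in the library labelled cKO, Hoxb4 and Hoxd4 as genes that were lower in the library labelled cKO, and Hoxd8 as a gene that was higher in 1 cluster and lower in another. Each line holds the 250 bases before the annotated start, read on the strand of the gene, at chr6:52164832-52165081 (minus strand), chr11:96318017-96318266 (plus strand), chr2:74721728-74721977 (plus strand) and chr2:74704365-74704614 (plus strand). Capitals mark matches on either strand to the retinoic acid receptor half-site AGGTCA, the PBX-HOX motif TGATTNAT and the CDX motif TTTATG, which do not overlap each other in these lines.
Hoxa2: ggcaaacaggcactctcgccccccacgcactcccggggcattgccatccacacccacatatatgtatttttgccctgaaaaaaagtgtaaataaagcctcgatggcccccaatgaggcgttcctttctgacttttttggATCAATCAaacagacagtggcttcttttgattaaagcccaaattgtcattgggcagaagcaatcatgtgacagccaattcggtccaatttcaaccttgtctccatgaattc
Hoxb4: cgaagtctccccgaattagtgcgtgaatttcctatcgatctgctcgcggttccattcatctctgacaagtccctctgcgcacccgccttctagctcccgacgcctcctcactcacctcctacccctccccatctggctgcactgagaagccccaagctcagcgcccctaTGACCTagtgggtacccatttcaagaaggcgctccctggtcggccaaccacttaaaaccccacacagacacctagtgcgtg
Hoxd4: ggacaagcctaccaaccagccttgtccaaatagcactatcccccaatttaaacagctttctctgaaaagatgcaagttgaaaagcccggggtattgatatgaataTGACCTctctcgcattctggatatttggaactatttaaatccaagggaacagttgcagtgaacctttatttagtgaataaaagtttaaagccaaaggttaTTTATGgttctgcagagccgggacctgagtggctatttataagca
Hoxd8: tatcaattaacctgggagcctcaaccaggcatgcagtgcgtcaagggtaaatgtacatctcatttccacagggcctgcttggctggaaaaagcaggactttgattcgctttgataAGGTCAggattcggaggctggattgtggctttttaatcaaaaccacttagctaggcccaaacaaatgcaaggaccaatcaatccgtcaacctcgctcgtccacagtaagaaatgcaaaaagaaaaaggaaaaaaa
The AGGTCA half-site was found in 6 of 24 windows of members (25%) and in 14.02% of the 32851 upstream windows of all genes. TGATTNAT was found in 2 windows of members (8.33%) against 2.82% of all windows, and TTTATG in 5 (20.8%) against 10.8%. Their median GC content was 58.6% against 52.4%. A match to these letters describes the window and does not show binding.

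Together, the 38 genes gave 58041 UMIs or 491 CPM (487 to 495) in the library labelled Ctrl and 52177 UMIs or 379 CPM (376 to 382) in the library labelled cKO. The log2 ratio was -0.37 (-0.39 to -0.36), and -0.32 (-0.34 to -0.30) when 22 clusters with at least 30 cells in each library were given equal weight, with means of 427 and 342 CPM. HoxB gave 64.2% and 63.4% of all Hox UMIs, HoxA 26.0% and 27.4%, HoxC 4.81% and 5.21%, and HoxD 4.99% and 3.94%. HoxD had the lowest ratio of the 4 complexes, at 24.5 and 14.9 CPM and a log2 ratio of -0.72 (-0.80 to -0.63). Paralogue groups 1 to 4 held 85.2% and 85.0% of the Hox UMIs, and the 24 members of groups 6 to 13 held 1.54% and 2.90%. The sum of groups 6 to 13 went opposite ways in cells split by sex-linked transcripts, at 6.50 and 17.4 CPM in cells with Xist UMIs and 8.52 and 1.90 CPM in cells with Y-linked UMIs. The mean paralogue number weighted by level was 3.14 in the library labelled Ctrl and 3.06 in the library labelled cKO, and this difference turned to 0.043 in cells with Xist UMIs and was -0.29 in cells with Y-linked UMIs.

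The ratio between the libraries did not follow the paralogue number evenly. Group 2 (Hoxa2 and Hoxb2) was at 135 and 141 CPM (log2 ratio 0.06, 0.03 to 0.09). Group 3 (Hoxa3, Hoxb3 and Hoxd3), the next genes along the same complexes, was at 93.3 and 47.6 CPM (log2 ratio -0.97, -1.02 to -0.93). Groups 1, 4 and 5 lay between them, with log2 ratios of -0.45, -0.52 and -0.51. Group 9 was at 0.457 and 1.75 CPM, but Hoxd9, its most abundant member in the library labelled cKO, was at 0.0969 and 2.04 CPM in cells with Xist UMIs and at 0.108 and 0.0917 CPM in cells with Y-linked UMIs.

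**Figure D1:**
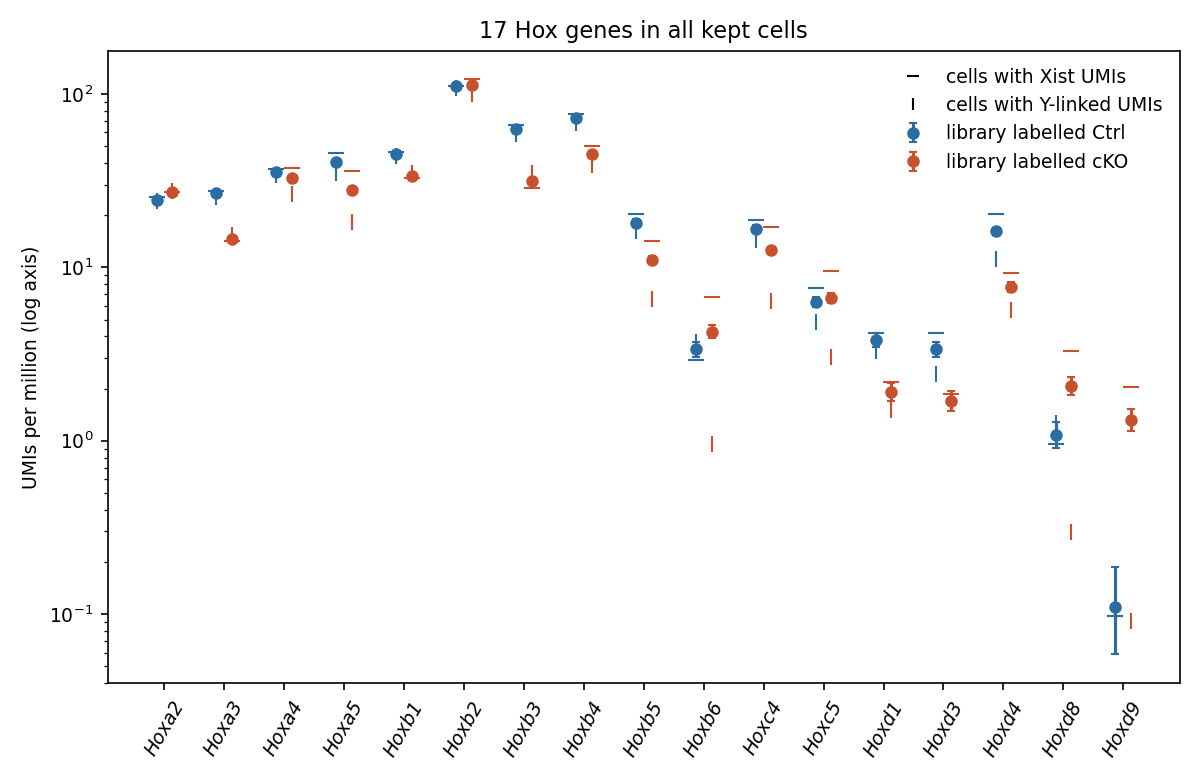
Levels of the 17 Hox genes that reached 10 CPM in a cluster, in all kept cells. The y axis is CPM on a log scale, blue and red circles are the libraries labelled Ctrl and cKO with exact 95% counting intervals, and the dashes and vertical ticks are the cells with Xist UMIs or with Y-linked UMIs of each library. Hoxb2 stood at 111 and 113 CPM, whereas Hoxb3 stood at 63.2 and 31.3 CPM.

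Because each library pools embryos of both sexes, its cells were also set side by side as cells with Xist but no Y-linked UMIs (3380 in the library labelled Ctrl, 5098 in the library labelled cKO) and cells with Y-linked but no Xist UMIs (2652 and 2785). These 2 parts come from different embryos of the same pool. They are not replicates of a genotype, and sex and embryo cannot be told apart in them. Of 11 members with at least 10 CPM in a library and 30 UMIs in all, 6 had both cKO parts below both Ctrl parts (Hoxa3, Hoxb1, Hoxb3, Hoxb4, Hoxb5 and Hoxd4), as did 55% of all 7836 genes tested, and 1 had both above (Hoxa2), as did 27.4%. The share of members in either order thus was no higher than that of all genes.

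In paralogue group 1, Hoxb1, which is expressed in posterior heart field cells, was at 44.9 CPM (43.7 to 46.2) in the library labelled Ctrl and 33.7 CPM (32.8 to 34.7) in the library labelled cKO. Its parts with Xist or Y-linked UMIs were at 46.1 and 44.0 CPM against 32.7 and 34.9 CPM, so the parts of a library were close together and the libraries apart. Hoxb1 was highest in pSHF-like (posterior second heart field) cells, in cluster 15 of the library labelled Ctrl (96.8 CPM) and in cluster 1 of the library labelled cKO (89.4 CPM). Hoxd1 was at 3.83 and 1.91 CPM, and led in cluster 0 of the library labelled Ctrl (19.6 CPM) but in cluster 5 of the library labelled cKO (10.1 CPM).

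In group 2, Hoxb2 was the most abundant member, found in 70.2% and 64.7% of kept cells. It was at 111 CPM (109 to 113) and 113 CPM (112 to 115), with parts at 111, 109, 121 and 100 CPM, which overlapped. It led in cluster 0 in both libraries, at 176 and 184 CPM. Hoxa2, known for specifying the second pharyngeal arch, was at 24.6 CPM (23.7 to 25.5) and 27.3 CPM (26.4 to 28.2), with parts at 25.6, 24.0, 27.1 and 27.5 CPM. It led in cluster 18, whose leading genes included Pax3, Tcf15 and Lbx1, at 51.8 and 46.9 CPM.

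In group 3, all 3 genes were lower in the library labelled cKO. Hoxb3 was at 63.2 CPM (61.7 to 64.6) and 31.3 CPM (30.4 to 32.3), which gave a log2 ratio of -1.01 (-1.07 to -0.96), and its parts were at 66.6 and 58.7 CPM against 28.9 and 35.0 CPM. Hoxa3, a gene needed for derivatives of the third pharyngeal arch and pouch, was at 26.7 CPM and 14.6 CPM (log2 ratio -0.88, -0.96 to -0.80), with parts at 27.7, 25.4, 14.2 and 15.3 CPM. Both showed a wider gap between the libraries than between the parts of either. Hoxd3 was at 3.37 and 1.70 CPM.

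In groups 4 and 5 the levels of the parts spread more. Hoxb4 was at 72.7 and 45.1 CPM (log2 ratio -0.69, -0.73 to -0.64), with parts at 76.3, 68.4, 50.5 and 38.7 CPM. Hoxa4 was at 35.6 and 32.8 CPM, near the median gene at -0.12 on the log2 scale, and led in cluster 10 of the library labelled Ctrl (140 CPM) and cluster 9 of the library labelled cKO (165 CPM). Hoxc4 was at 16.7 and 12.6 CPM, with parts at 18.7, 14.3, 16.99 and 6.40 CPM, so that the cKO parts lay farther apart than the libraries. Hoxd4 had the lowest ratio of the members compared, at 16.1 CPM (15.4 to 16.9) and 7.70 CPM (7.25 to 8.18), which gave a log2 ratio of -1.06 (-1.17 to -0.96). Its parts were at 20.2, 11.2, 9.24 and 5.66 CPM, so that its Ctrl parts lay farther apart than the libraries. Hoxa5, a gene of lung and foregut mesenchyme, was at 40.5 and 28.0 CPM with parts at 45.4, 35.2, 35.8 and 18.2 CPM, which overlapped. Hoxb5 was at 18.1 and 11.004 CPM, with parts at 20.3, 16.3, 14.3 and 6.58 CPM, and Hoxc5 at 6.32 and 6.64 CPM.

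Of the 24 members of groups 6 to 13, only Hoxb6, Hoxd8 and Hoxd9 reached 10 CPM in a cluster of at least 30 cells of each library. Hoxb6 was at 3.37 and 4.26 CPM, Hoxd8 at 1.08 and 2.08 CPM and Hoxd9 at 0.110 and 1.32 CPM in all kept cells. In cells with Y-linked UMIs alone the direction turned, with Hoxb6 at 3.69 and 0.963 CPM and Hoxd8 at 1.27 and 0.298 CPM, against 2.94 and 6.71 CPM and 0.953 and 3.29 CPM in cells with Xist UMIs. Hoxb9 gave 37 UMIs, from 12 cells, in the library labelled Ctrl and 0 in the other. It was 14.4-fold lower there if the 0 is set to 3 counts, and the exact interval of its log2 ratio ended at -3.47. Of the 37 UMIs, 24 lay in 5 cells of cluster 1, of which 1 held 9. Hoxa11, with 17 UMIs and 0, rested on 4 cells, of which 1 held 10 UMIs. The 4 members without any UMI in a kept cell were Hoxc10, Hoxc11, Hoxc12 and Hoxc13. The exact interval of a count of 0 ends at 0.0312 and 0.0268 CPM. Hoxa6, Hoxa10, Hoxa13, Hoxb13, Hoxc9, Hoxd11, Hoxd12 and Hoxd13 had 0 to 13 UMIs a library. The rest of these groups, Hoxa7, Hoxa9, Hoxb7, Hoxb8, Hoxc6, Hoxc8 and Hoxd10, lay between 0.00846 and 1.23 CPM in all kept cells.

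Across clusters with at least 30 cells in each library, the summed Hox level ranged from 23.0 CPM (20.2 to 26.2) in the BrM-like (branchiomeric muscle progenitor) cluster 2 of the library labelled Ctrl to 893 CPM (875 to 911) in cluster 5 of the library labelled cKO. Hox RNA was thus low in BrM-like cells, in cardiomyocyte (CM)-like clusters 16 and 22 (46.9 to 56.0 CPM), though less so in CM-like cluster 20 (124 and 79.3 CPM), and in cluster 17, led by Klf2 and Nfatc1 among others (28.2 and 45.5 CPM). By the mean of both libraries it was highest in clusters 5, 10, 7, 9, 13 and 15, although in the library labelled cKO cluster 1 (549 CPM) stood above cluster 15 (515 CPM). Cluster 5 was led by Gal, Rgcc, Msx2 and Lix1, cluster 10 by Barx1, Foxf1 and Isl1, cluster 7 by Dach2, Gas1 and Prrx1, and cluster 13 by Cpa1, Wt1 and Maf; none met the rule for a name. Cluster 9 was septum transversum mesenchyme-like, with all 6 markers of that list found and Colec10 among its leading genes. Barx1, a marker of the foregut mesenchyme list, was among its leading genes too. Cluster 15 was pSHF-like. Clusters 7 and 10 of the library labelled Ctrl, at 859 CPM (838 to 879) and 878 CPM (854 to 903), did not differ beyond their counting intervals.

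The clusters also differed in which members they carried. By the mean of both libraries, Hoxb2 was the highest member in each of the 22 clusters. In the library labelled Ctrl, Hoxb3 stood above it in cluster 7 (147 and 137 CPM), Hoxa5 in cluster 10 (144 and 141 CPM) and both Hoxb4 (114 CPM) and Hoxb3 (113 CPM) in cluster 12, where Hoxb2 was at 105 CPM. After it, Hoxb1 stood next in cluster 0 and in the pSHF-like cluster 1, Hoxa4 in clusters 8, 9 and 10, Hoxa5 in cluster 5, and Hoxb3 in clusters 3, 7, 11, 12, 13 and 18. The mean paralogue number was lowest in cluster 0 of the library labelled cKO (2.11) and in cluster 6, led by Crym, Tgfbi and Ebf2 (2.42 and 2.22), and highest in cluster 5 of the library labelled cKO (3.85) and in cluster 10 (3.54 and 3.55). In endothelium-like cluster 14 the sum was 234 and 188 CPM, with a mean paralogue number of 3.54 and 3.46, close to that of cluster 10 at a much lower level.

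**Figure D2:**
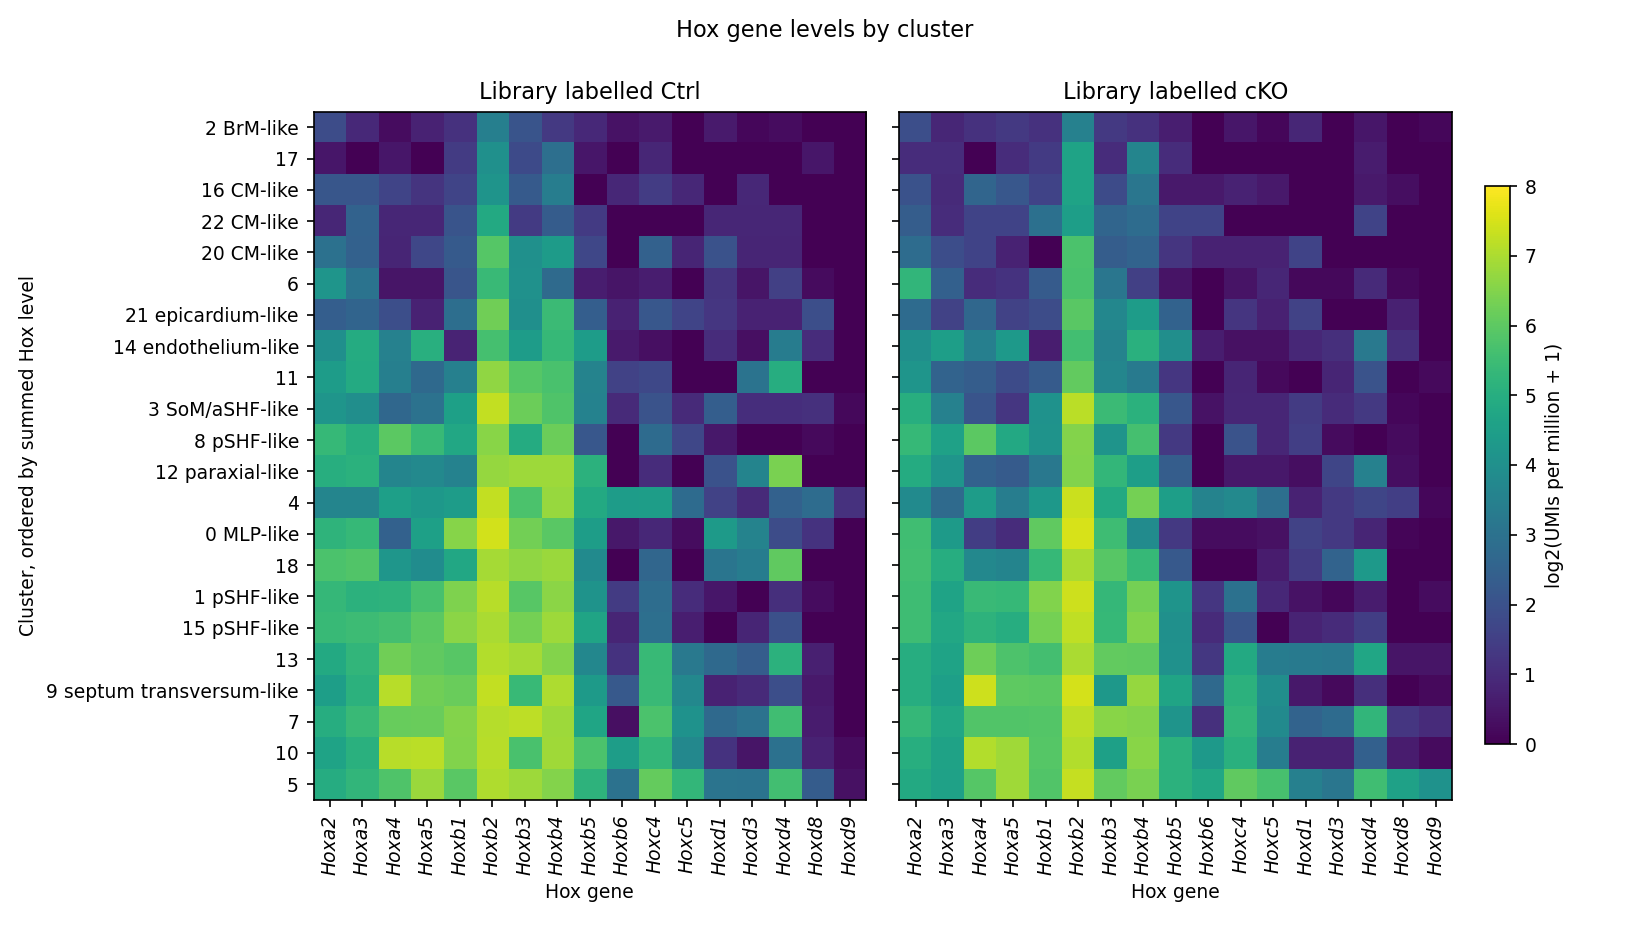
Level of 17 Hox genes (columns) in 22 clusters (rows, ordered by summed Hox level) in the libraries labelled Ctrl and cKO. Color is log2(CPM + 1); cluster 2 is nearly dark outside Hoxb2, and cluster 5 at the bottom is bright up to Hoxd9 in the library labelled cKO alone, where Hoxd9 reached 15.8 CPM.

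When each cell was thinned to 5000 UMIs, at least 1 Hox UMI was found in 73.8% of 6543 Ctrl cells (72.7 to 74.9) and in 64.3% of 8910 cKO cells (63.3 to 65.3), a difference of -9.54 percentage points (-11 to -8.08). Shallower cells were left out, 71 and 99 of them, and without thinning the shares were 84.5% and 78.4%. The difference did not weight clusters equally, though their cell numbers differed, as in clusters 6 (337 and 698) and 12 (314 and 286). Shares were close in some clusters, such as 1 (90.4% and 88.7%), and apart in others, such as 11 (66.9% and 36.2%). In CM-like cells, taken as a background population, the thinned share was 22.8% (17.9 to 28.3) and 16.8% (13.5 to 20.5), at median depths of 16587 and 15006 UMIs. CM-like cluster 20 stood above the others, at 39.5% and 19.3%, against 17.9% and 16.7% in cluster 16 and 12.1% and 15% in cluster 22. Shares at or below that level, as in BrM-like cluster 2 (8.56% and 8.58%), which lay below all 3 clusters, were read as background. Cluster 5 had 95.9% and 96.5%, with 3.35 and 3.30 Hox genes found per thinned cell, and 70.3% and 70.4% of its cells held genes of at least 2 complexes. In paraxial mesoderm-like cluster 12 the share was 94.2% (91.0 to 96.5) in the library labelled Ctrl and 61.1% (55.1 to 66.7) in the library labelled cKO.

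Between the libraries, 11 members had at least 10 CPM in a library and 30 UMIs over all kept cells. Of these, 2 were at least 2-fold lower in the library labelled cKO, Hoxd4 and Hoxb3, against 0.817% of all 7836 genes that met the same minimum, and 0 were at least 2-fold higher, against 0.485%. The median log2 ratio of the 11 was -0.53, and that of all genes tested was -0.11. Relative to the median gene, Hoxd4 was at -0.95 and Hoxb3 at -0.90 on the log2 scale, so neither remained at the 2-fold mark. By their own log2 ratios in cells with Y-linked UMIs, Hoxb5 (-1.31) and Hoxc4 (-1.17) were at least 2-fold lower, and Hoxb3 (-0.75) and Hoxd4 (-0.98) were not. The next lowest were Hoxa3, Hoxb5 and Hoxb4, and the highest were Hoxa2, Hoxb2, Hoxa4, Hoxc4 and Hoxb1, of which Hoxa2 and Hoxb2 lay above 0.

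The direction was the same in nearly all clusters for some members and not for others. Hoxb3 was lower in the library labelled cKO in 18 of 18 clusters in which it had at least 30 UMIs, Hoxa3 in 16 of 16 and Hoxd4 in 10 of 10. These 3 of 11 members with 10 or more such clusters compare with 13.2% of 10303 genes that were lower in every such cluster; none of the 11 was higher in every one, against 5.4% of genes. Hoxb4 was lower in 19 of 20, whereas Hoxb2 was lower in 10 and higher in 12, and Hoxa2 lower in 6 and higher in 11. Within clusters, both cKO parts lay below both Ctrl parts for Hoxb3 in 16 of 16 clusters with at least 30 cells in each part and at least 30 UMIs of the gene, for Hoxb4 in 14 of 17 and for Hoxa3 in 13 of 15, but for Hoxd4 in 5 of 8 and for Hoxb2 in 2 of 18. In cells with Xist UMIs the log2 ratio of Hoxd4 was above 0 in clusters 5 (0.10), 7 (0.07), 13 (0.07) and 18 (0.14), each with an interval that held 0. Over all genes, both cKO parts lay below both Ctrl parts in 37.8% of 180685 such pairs of a gene and a cluster and above them in 20.1%. The median log2 ratio over clusters was -0.88 for Hoxb3, -0.67 for Hoxa3, 0.06 for Hoxb2 and 0.14 for Hoxa2.

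**Figure D3:**
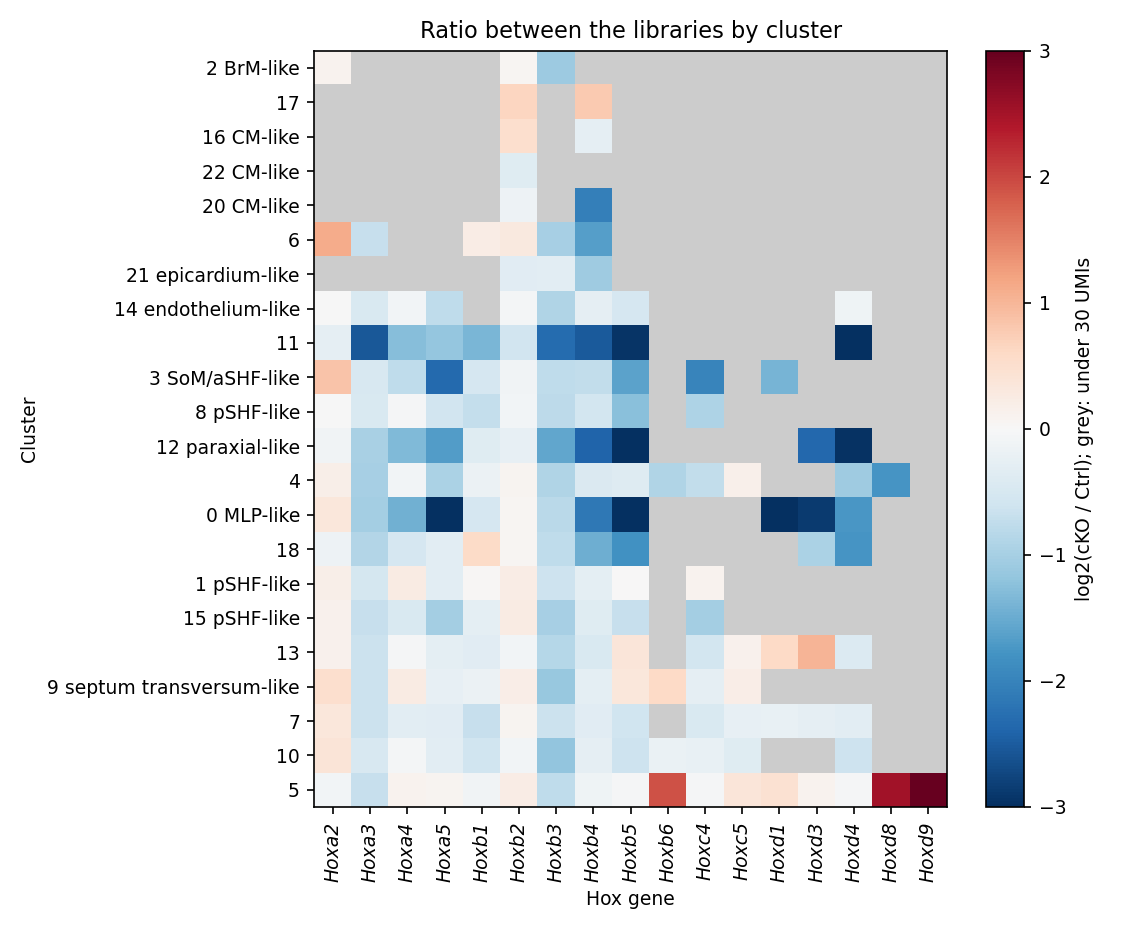
Log2 ratio of the library labelled cKO to the library labelled Ctrl for 17 Hox genes (columns) in 22 clusters (rows, as in the map of levels); blue is lower in cKO, red is higher, colors end at 3 in either direction and grey marks under 30 UMIs. The Hoxb3 column is blue in all 18 clusters that have a value, and in cluster 11 its log2 ratio was -2.31.

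In the 6 clusters with the highest Hox levels most members stayed within 2-fold. In cluster 10, Hoxb3 was at 51.3 and 22.6 CPM (log2 ratio -1.18), followed by Hoxb5, Hoxb1, Hoxa3 and Hoxc5 (-0.61, -0.60, -0.47 and -0.37), and Hoxa2 was the only member above 0 (0.38). Thus 1 of 12 members was at least 2-fold lower, against 1.69% of genes, and 0 were higher, against 0.566%. Hoxb6 there had log2 ratios of -0.08 in cells with Xist UMIs and -1.12 in cells with Y-linked UMIs. In cluster 7, 0 of 12 members were at least 2-fold lower (0.912% of genes) or higher (0.456%). The lowest were Hoxb1, which was at 91.1 and 56.5 CPM, Hoxb3, Hoxa3, Hoxb5 and Hoxc4, and Hoxa2 and Hoxb2 lay above 0. In cells of cluster 7 with Y-linked UMIs, however, Hoxb5 (29.5 and 9.63 CPM), Hoxc4 (52.3 and 20.1 CPM) and Hoxa5 (63.0 and 26.3 CPM) were past 2-fold, whereas their log2 ratios in cells with Xist UMIs were -0.03, 0.06 and 0.08. In cluster 9, Hoxb3 (40.7 and 18.4 CPM) was the 1 of 11 members lower by 2-fold, against 1.57% of genes, and 0 were higher, against 0.591%. Hoxa4 there was at 139 and 165 CPM (log2 ratio 0.25, 0.11 to 0.40), and Hoxa2 at 21.3 and 30.4 CPM.

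In cluster 13 the lowest were Hoxb3 (121 and 66.5 CPM), Hoxa3, Hoxc4, Hoxb4 and Hoxd4, and 0 of 11 members were 2-fold lower (2.6% of genes) or higher (1.04%). Hoxc4, Hoxa5, Hoxd4 and Hoxb3 were past 2-fold in cells with Y-linked UMIs, at log2 ratios of -1.47, -1.27, -1.22 and -1.04, against -0.27, 0.10, 0.07 and -0.79 in cells with Xist UMIs. Hoxb5 stood highest, at 11.97 and 15.5 CPM with an interval of its log2 ratio that held 0 (-0.29 to 1.04). In pSHF-like cluster 15, Hoxa5 (61.7 and 30.4 CPM) and Hoxb3 (79.8 and 39.7 CPM) were the 2 of 9 members lower by 2-fold, against 1.91% of genes, and 0 were higher, against 0.57%. In cells with Xist UMIs both were within 2-fold, at log2 ratios of -0.89 and -0.92. In cells with Y-linked UMIs they were at -1.22 and -1.08, and Hoxb5 (-1.75, against -0.24 in cells with Xist UMIs) and Hoxa3 (-1.04, against -0.54) were past 2-fold as well. In all cells Hoxb5, Hoxa3 and Hoxa4 followed, and Hoxb2 (125 and 149 CPM) and Hoxa2 were above 0. The summed level was lower in the library labelled cKO in clusters 7, 10, 13 and 15, by log2 ratios of -0.32, -0.28, -0.29 and -0.33. These ratios were smaller in cells with Xist UMIs than in cells with Y-linked UMIs in cluster 7 (-0.11 and -0.59), cluster 13 (-0.12 and -0.69) and cluster 15 (-0.24 and -0.44), but not in cluster 10 (-0.33 and -0.21). In cluster 9 the interval held 0 (-0.10 to 0.03), and in cluster 5 the sum was at 846 and 893 CPM. Their parts went opposite ways, at -0.11 in cells with Xist UMIs and 0.11 in cells with Y-linked UMIs in cluster 9, and at 0.20 and -0.34 in cluster 5.

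More strongly negative log2 ratios lay in clusters outside that rule, of which clusters 0 and 12 were chosen after their values were seen. In MLP-like cluster 0 (594 and 871 cells), led by Prdm1, Six2, Grem1 and Nrg1 among others, 6 of 10 members were at least 2-fold lower in the library labelled cKO (60%) against 5.11% of genes, and 0 were higher against 1.22%. Hoxa5 was at 22.4 CPM in the library labelled Ctrl and 1.001 CPM in the library labelled cKO, with parts at 23.9 and 19.3 against 0.291 and 0.999 CPM. Hoxb5 was at 21.1 and 1.501 CPM, with parts at 22.9, 19.8, 0.874 and 1.60 CPM. Hoxb4 was at 60.7 and 13.7 CPM, with parts at 64.2, 57.0, 12.1 and 16.2 CPM. In each of these, the parts of a library were close and the libraries far apart. The parts of Hoxb3 differed more, at log2 ratios of -1.12 in cells with Xist UMIs and -0.45 in cells with Y-linked UMIs.

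Hoxd1 (19.6 and 2.002 CPM) and Hoxd3 (11.04 and 1.501 CPM) showed the same order in cluster 0, and Hoxa3 was at 39.9 and 19.5 CPM. The log2 ratio of Hoxa3 was within 2-fold in cells with Xist UMIs (-0.90) and past it in cells with Y-linked UMIs (-1.26). By contrast, Hoxb2 was at 176 and 184 CPM there (log2 ratio 0.06, -0.03 to 0.15), and Hoxa2 at 35.9 and 45.5 CPM. Both cKO parts lay below both Ctrl parts in 8 of 10 members (47.4% of genes) and above in 1 (27% of genes). In cluster 0 the log2 ratio of Tbx1 was 0.99 (0.87 to 1.12). When the libraries were clustered without integration, only 50.3% of the cells of cluster 0 shared a cluster, and there the log2 ratio of Hoxb4 was 0.08 and that of Hoxb2 was 0.71, while that of Hoxa5 was -2.86 and that of Hoxb5 was -3.02.

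In paraxial mesoderm-like cluster 12 (314 and 286 cells), led by Pax1, Meox2 and Tcf15, 7 of 11 members were at least 2-fold lower (63.6%) against 1.74% of genes, and 0 were higher against 1.04%. Hoxd4 was at 82.1 and 10.4 CPM, Hoxb4 at 114 and 21.5 CPM, Hoxb5 at 34.4 and 4.13 CPM and Hoxb3 at 113 and 38.3 CPM, while Hoxb2 was at 105 and 89.3 CPM. Here the parts of a library differed as well. Hoxd4 was at 90.9 and 50.3 CPM in the Ctrl parts and at 31.0 and 8.01 CPM in the cKO parts, and Hoxb5 at 38.2, 21.4, 24.5 and 0.668 CPM, which overlapped. The Ctrl cells of cluster 12 were mostly cells with Xist UMIs (248 against 46) and the cKO cells mostly cells with Y-linked UMIs (185 against 39). Among cells with Xist UMIs alone, the log2 ratio of the summed level was -0.36, against -1.41 among cells with Y-linked UMIs and -1.29 in all. Of the 7 members named by the 2-fold count, Hoxa4 (10.7 and 19.6 CPM, log2 ratio 0.87) and Hoxa5 (12.2 and 19.6 CPM, 0.68) were higher in cKO among cells with Xist UMIs, with intervals that held 0. In the same cells Hoxb3 (-0.59), Hoxb4 (-0.91), Hoxb5 (-0.64) and Hoxd3 (12.01 and 6.54 CPM) were within 2-fold. Of the 7, only Hoxd4 (log2 ratio -1.55) stayed at least 2-fold lower there. Hoxb1, below 0 in all cells of the cluster at 10.6 and 8.26 CPM, was at 5.58 and 22.9 CPM among cells with Xist UMIs (log2 ratio 2.04, 0.99 to 3.03) and at 18.9 and 5.01 CPM among cells with Y-linked UMIs (log2 ratio -1.91), so it was at least 2-fold higher in one part and lower in the other. Tbx1 was at 6.58 and 29.3 CPM in cluster 12. Both cKO parts lay below both Ctrl parts in 5 of 11 members (31.7% of genes) and above in 0 (18.6%).

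**Figure D4:**
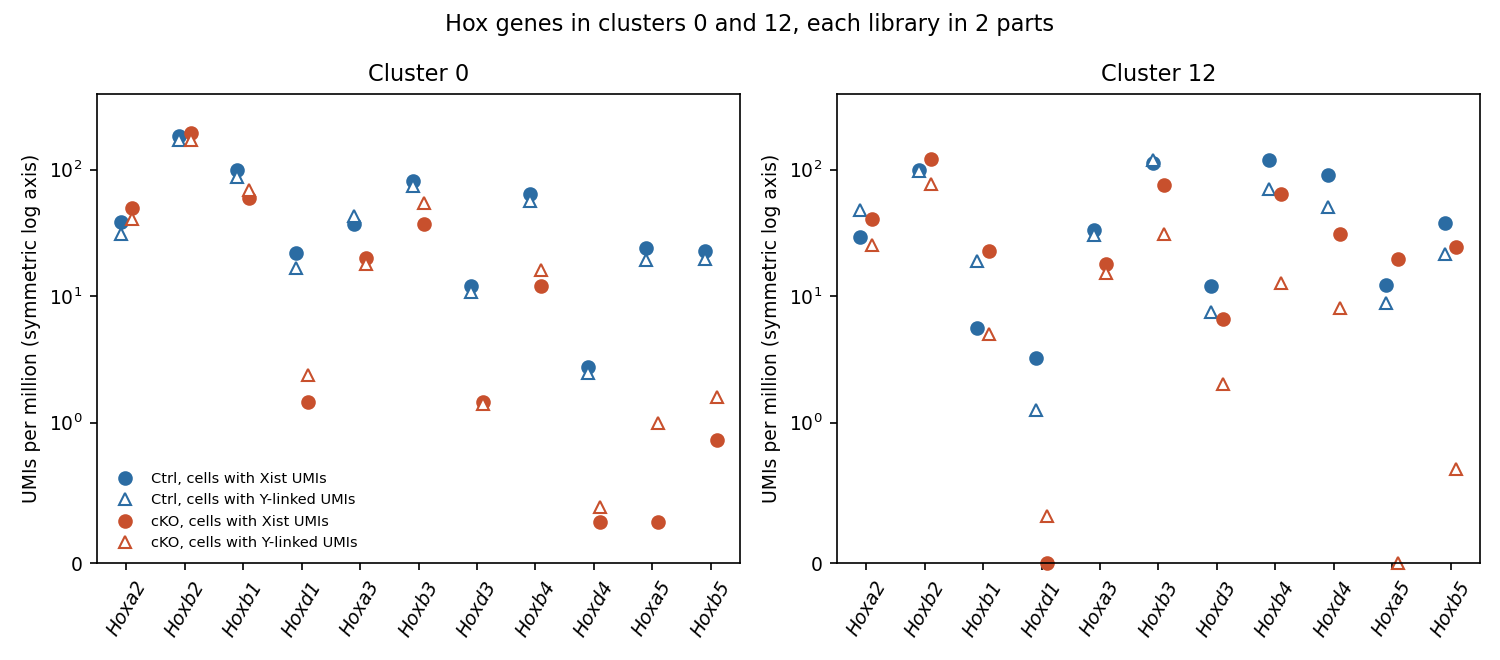
Levels of 11 Hox genes in MLP-like cluster 0 and paraxial mesoderm-like cluster 12, in CPM on a symmetric log axis. Filled circles are cells with Xist UMIs and open triangles cells with Y-linked UMIs of the libraries labelled Ctrl (blue) and cKO (red); in cluster 0 symbols of a color sit together, at 64.2 and 57.0 against 12.1 and 16.2 CPM for Hoxb4, whereas in cluster 12 they spread, as for Hoxb5.

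Cluster 11, led by Lum, Foxd1, Zic1 and Pax9, and cluster 18 were also looked at after their values were seen. In cluster 11 the summed level was 337 CPM (317 to 358) and 126 CPM (118 to 136), with Hoxb4 at 50.7 and 8.85 CPM, Hoxd4 at 30.5 and 3.16 CPM and Hoxa3 at 28.5 and 4.90 CPM. Its parts differed, with a log2 ratio of the sum of -2.02 in cells with Xist UMIs (97 and 230 cells) and -0.70 in cells with Y-linked UMIs (61 and 133 cells). Hoxd4 was at 47.9 and 1.74 CPM in the former and 8.59 and 4.75 CPM in the latter. In cluster 18 it was 602 and 395 CPM, with Hoxd4 at 65.0 and 19.2 CPM and Hoxb4 at 109 and 40.0 CPM, but Hoxb1 at 26.7 and 40.0 CPM (log2 ratio 0.58, 0.11 to 1.05). The cells of cluster 18 with Xist UMIs were 87 and 13 and those with Y-linked UMIs 45 and 81. In the former the log2 ratio of the sum was -0.05 (-0.35 to 0.24) and Hoxd4 was at 58.2 and 63.96 CPM, whereas in the latter the log2 ratio was -0.72 and Hoxd4 was at 68.9 and 13.9 CPM. Hoxa2 was at 20.2 and 16.9 CPM in cluster 11, 31.4 and 29.3 CPM in cluster 12 and 51.8 and 46.9 CPM in cluster 18, each with an interval of its log2 ratio that held 0. In cluster 12 its parts went opposite ways, at 0.49 (-0.19 to 1.11) in cells with Xist UMIs and -0.91 (-1.49 to -0.31) in cells with Y-linked UMIs.

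In cluster 5 the members of groups 6 to 13 set the libraries apart. Of 16 members compared there, 3 were at least 2-fold higher in the library labelled cKO (18.8%), against 0.484% of genes, and 0 were lower, against 1.21%. They were Hoxd9 (0.293 and 15.8 CPM), Hoxd8 (4.00 and 23.0 CPM) and Hoxb6 (7.13 and 26.8 CPM, log2 ratio 1.91, 1.53 to 2.30), genes used in limb and trunk regions of the lateral plate. Below the level minimum, Hoxa7 was at 0.390 and 7.75 CPM, and Hoxa9 gave 0 and 50 UMIs and Hoxd10 0 and 26 UMIs. The latter 2 were 16.1-fold and 8.39-fold higher if the 0 is set to 3 counts. Hoxb3 (114 and 66.8 CPM) and Hoxa3 (37.2 and 23.1 CPM) were lower, as in other clusters, and Hoxb4 was at 91.5 and 83.3 CPM. Hoxd1 (7.42 and 10.1 CPM), Hoxc5 (38.4 and 49.7 CPM) and Hoxb2 (132 and 156 CPM) had intervals above 0. In cells with Y-linked UMIs all 3 turned, with Hoxd1 at 8.62 and 7.30 CPM, Hoxc5 at 34.8 and 32.4 CPM and Hoxb2 at 136 and 128 CPM. Hoxa2, Hoxa4, Hoxa5, Hoxb1, Hoxb5, Hoxc4 and Hoxd4, in all cells of the cluster, had intervals of the log2 ratio that held 0. Some of these joined parts that went opposite ways. The log2 ratio of Hoxa5 was 0.16 (0.02 to 0.29) in cells with Xist UMIs and -0.48 (-0.78 to -0.18) in cells with Y-linked UMIs, that of Hoxc4 was 0.10 (-0.08 to 0.28) and -0.78 (-1.16 to -0.40), and that of Hoxd4 was 0.10 (-0.12 to 0.32) and -0.45 (-0.87 to -0.04). Hoxb4 was likewise at 0.09 and -0.75.

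The higher level in cluster 5 came mostly from the cells with Xist UMIs of the library labelled cKO. Hoxd9 was at 19.7 CPM in them and at 1.37 CPM in the cells with Y-linked UMIs, against 0.447 and 0 CPM in the Ctrl parts. Hoxd8 was at 29.6 and 4.56 CPM against 4.62 and 2.41 CPM, so that its parts overlapped. Summed over groups 6 to 13, the parts were at 119 and 21.5 CPM in the library labelled cKO and 17.9 and 7.93 CPM in the library labelled Ctrl. Both cKO parts lay above both Ctrl parts in 2 of 16 members (22.8% of genes) and below in 3 (44.1%). At least 2 members of groups 7 to 13 were found together in 70 of 605 cells of cluster 5 in the library labelled cKO (11.6%, 9.13 to 14.4), 63 of them with Xist UMIs and 4 with Y-linked UMIs, and in 3 of 484 cells in the library labelled Ctrl (0.620%, 0.128 to 1.80).

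In the library labelled Ctrl such cells lay mostly in cluster 4, led by Postn, Alcam, Sfrp5 and Shox2. Its markers were nearest the septum transversum list, of which only Alcam was among its 10 leading genes beside Sfrp5, Shox2 and Tbx18, and it was left unnamed after its leading genes were seen. There they were 26 of 388 cells (6.70%, 4.42 to 9.66), of which 20 had Y-linked UMIs and 1 had Xist UMIs, against 10 of 732 cells in the library labelled cKO (1.37%, 0.657 to 2.50), of which 9 had Xist UMIs. Hoxb8 in cluster 4 was at 1.88 and 13.7 CPM in the Ctrl parts and at 2.11 and 0 CPM in the cKO parts, so the parts of the library labelled Ctrl differed more than the libraries did in cells with Xist UMIs. Hoxc8 gave 29 UMIs and 0 there, 14.9-fold lower in the library labelled cKO if the 0 is set to 3 counts, with 16 of the 29 in 1 cell. Embryo and genotype cannot be told apart in these counts.

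**Figure D5:**
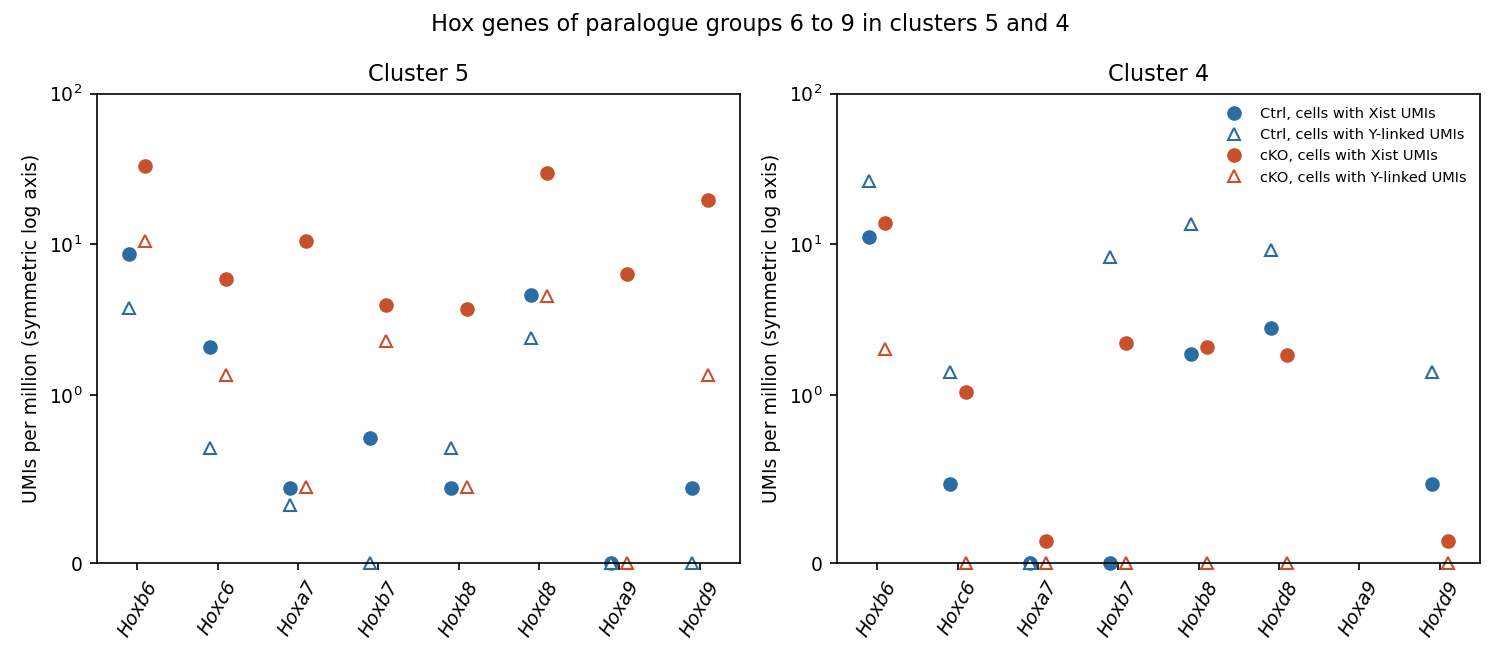
Levels of 8 Hox genes of paralogue groups 6 to 9 in clusters 5 and 4, in CPM on a symmetric log axis, with symbols and colors for the 4 parts as in the plot of clusters 0 and 12; a gene with no UMI in a cluster has no symbol. In cluster 5 the cells with Xist UMIs of the library labelled cKO stand highest for all 8 genes (Hoxd8 at 29.6 CPM), and in cluster 4 the cells with Y-linked UMIs of the library labelled Ctrl stand highest for Hoxb8 (13.7 CPM).

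A list of 22 cofactors and regulators of Hox genes, covering PBX, MEIS and PKNOX cofactors, CDX factors, the retinoic acid pathway and hindbrain regulators, was compared over all kept cells. Of these, 11 reached the level minimum, and 0 were at least 2-fold lower (0.817% of genes) or higher (0.485%). Their median log2 ratio was -0.37, against -0.11 for all genes tested. Of the 11, 10 were below 0, a count given without the share of all genes. Meis2, a MEIS cofactor, was at 458 and 342 CPM, and Aldh1a2, which makes retinoic acid, at 92.6 and 53.3 CPM. Below the level minimum, and chosen after their values were seen, Gbx2 was at 4.45 and 1.002 CPM and Cyp26b1, which breaks down retinoic acid, at 6.35 and 3.11 CPM. Cdx2 had 0 and 1 UMI, and Cdx4 had 0 in both libraries.

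Outside the group, the genes whose log2 level over 19 clusters was most like the summed Hox level, by the lower of the Pearson correlations in each library and among 6584 genes, were Gm15050 (0.94 and 0.89), Abhd11os (0.89 and 0.89), Hotairm1 (0.86 and 0.90), Tshz1 (0.87 and 0.86), Hdgfrp3, Zfhx3, Prpf8, Ifi30, Tes and Tshz3. The clusters of a library share depth and base composition, so these values are descriptions. Gm15050 and Hotairm1 are noncoding RNA genes on chromosome 6, at 52172881 to 52174059, within the span of Hoxa3, and at 52158524 to 52162020, beside Hoxa2.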

How the data were processed

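Per the labels, the authors aligned reads to mm10 with Cell Ranger 3.1.0, and the deposited values are raw UMI counts per gene and barcode of 2 libraries, not normalized. Cells with at least 1000 genes and at most 10% mitochondrial UMIs were kept (411 and 508 left out). The 393 and 764 cells with the highest Scrublet scores (scanpy 1.11.5, 0.8% per 1000 cells) were removed, since the automatic threshold marked 0% in the library labelled Ctrl. Clusters came from Seurat 5.3.0 (R 4.3.3; 2000 variable genes, 30 dimensions, resolution 1, integrated libraries), without Hox genes. A cluster was named when over 50% of a marker list and at least 3 markers were found, at least 1 of them among its 10 leading genes and no other list with more there; this rule was set after the data were seen. Counts were summed per library and cluster. Intervals are exact (Poisson, Clopper-Pearson, conditional for ratios) at 95%. Only the ratio interval was run on simulated counts. These were Poisson counts, which that interval assumes, so the run does not cover UMIs that gather in few cells. Members with at least 10 CPM in some cluster of at least 30 cells were described with values, the others by count and range. In each comparison the 5 members with the largest ratio in each direction were named, among those with at least 10 CPM and 30 UMIs. Compared clusters were the 6 with the highest Hox level and at least 100 cells in each library. The members and lists were chosen with earlier results of these data known. Of the genes the rule covers, 1 is not reported here. With 1 library per group no p-value was computed.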

Additional observations from a re-analysis of the deposited data

Results flagged for a closer look

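Members of paralogue groups 7 and 8 had log2 ratios of opposite sign in clusters 5 and 4, and this difference was not tested. On the log2 scale, library labelled cKO over library labelled Ctrl, Hoxb7 was at 2.76 in cluster 5 and -1.71 in cluster 4, Hoxb8 at 2.49 and -2.54, and Hoxd8 at 2.52 and -1.78. The negative sign of Hoxb7 and Hoxb8 in cluster 4 was found in cells with Y-linked UMIs, where they were at 8.27 and 0 CPM and at 13.7 and 0 CPM. In cells with Xist UMIs, Hoxb7 was at 0 and 2.24 CPM and Hoxb8 at 1.88 and 2.11 CPM. In cluster 5 the positive sign of Hoxb8 was found in cells with Xist UMIs (0.447 and 3.73 CPM). It turned in cells with Y-linked UMIs (0.689 and 0.456 CPM), whereas Hoxb7 and Hoxd8 kept theirs in both parts.

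The antisense genes of the complexes, which the comparisons did not use, gave UMIs above the limit that a count of 0 allows. Hoxb3os was at 20.5 CPM in the library labelled Ctrl and 19.8 CPM in the library labelled cKO, Hoxaas3 at 7.63 and 5.12 CPM, Hoxb5os at 0.863 and 0.828 CPM and Hoxd3os1 at 0.516 and 0.515 CPM. Hoxb3os thus lay near equal levels, while Hoxb3, on the other strand of the same region, was at 63.2 and 31.3 CPM.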

How the results depend on the processing

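Counting error, not the spread between embryos, sets every interval, and with 1 library per group no replicate was left out. No paired analysis was possible because each group has 1 library. The split of cells by sex-linked UMIs and its counts were added after the data were seen.

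Over all kept cells the log2 ratio of the summed Hox level was -0.37. It was -0.40 with all barcodes and with presumed doublets kept, -0.34 with totals without mitochondrial, ribosomal protein and haemoglobin genes, -0.26 with the median gene set to 0, -0.30 in cells with Xist UMIs and -0.51 in cells with Y-linked UMIs. With clusters weighted equally it was -0.35 in a second clustering without genes that differ between the libraries, -0.28 without integration, -0.30 at resolution 0.6, -0.35 at resolution 1.5, -0.23 in cells with Xist UMIs, -0.43 in cells with Y-linked UMIs and -0.21 with the median gene set to 0. The mean paralogue number, which differed by -0.076 between the libraries (cKO minus Ctrl), differed by 0.043 in cells with Xist UMIs and -0.29 in cells with Y-linked UMIs.

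Members at least 2-fold lower numbered 1 without mitochondrial, ribosomal protein and haemoglobin genes in the totals, 0 with the median gene set to 0, and 4 without a level minimum but with at least 1 UMI in each library, where 5 were at least 2-fold higher. Hoxb9 (37 and 0 UMIs) and Hoxa11 (17 and 0 UMIs) are not in that count. No share over all genes is given for these settings, so these counts are not read as a result about the members. The difference in the share of cells with a Hox UMI was -6.08 percentage points without thinning, -5.32 at 10000 UMIs, -6.91 in cells with Y-linked UMIs and -11.5 for at least 2 Hox UMIs.

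In cells with Xist UMIs the log2 ratio turned to 0.025 for Hoxa4, to 0.28 for Hoxb2 in cluster 12 and to 0.17 for Hoxb8 in cluster 4. In cells with Y-linked UMIs it turned to -0.11 for Hoxb2, -1.94 for Hoxb6, -0.67 for Hoxc5, -2.09 for Hoxd8, -0.23 for Hoxd9 and -0.34 for the sum in cluster 5. That sum was -0.037 in the second clustering. Hoxb4 in cluster 0 was at 0.079 without integration. The causes were not tested. The other recomputed values of single members and cluster sums kept their direction, 213 of them within their counting interval and 88 beyond it. Not every member was recomputed in every cluster. In the split by sex-linked UMIs alone, others also turned, among them in cells with Xist UMIs Hoxb1 (2.04), Hoxa4 (0.87) and Hoxa5 (0.68) in cluster 12 and Hoxd4 (0.14) in cluster 18, and in cells with Y-linked UMIs Hoxb5 (-0.34) in cluster 13.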
